A study of Mus musculus with 12 samples.

Results

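A set of 40 genes of glucose metabolism, those for glucose transport, glycolysis, lactate formation and export, pyruvate oxidation and the pentose phosphate pathway, were followed through 12 RNA sequencing libraries of PGCLCs (primordial germ cell-like cells) of the mouse. Such cells are derived in a dish from stem cells by way of epiblast-like cells (EpiLCs) and stand in for the earliest germ line. The 40 genes were chosen by name as members of these pathways, with earlier results of these data known. Their counts of calls, set against shares of all genes, are therefore not those of a blind choice. All 40 were found among the 35975 genes of the files and passed the filter on low counts, which kept 16178 genes. The cells came from the embryonic stem cell line E14TG2a, kept in 2i medium (inhibitors of Gsk3 and MEK) with LIF and vitamin C. They were primed as EpiLCs and then induced as aggregates for 4 days in GMEM with serum replacement, sodium pyruvate, LIF, EGF, SCF, BMP4 and BMP8. The 4 groups, each of 3 biological replicates, are named by genotype and hours of priming: WT_40h for WT at 40 h, and TKO_40h, TKO_48h and TKO_96h for TKO at 40, 48 and 96 h. TKO cells are known from the study to lack functional Dnmt1, Dnmt3a and Dnmt3b. WT was sequenced at 1 priming time, so that priming time could be compared in TKO alone. The titles name no separate clones, and other differences between the 2 lines cannot be told apart from the knockouts. The labels do not say whether RNA was taken from sorted cells or from whole aggregates.

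Glycolysis splits glucose into pyruvate in the cytosol. Glucose enters through GLUT transporters, is trapped by hexokinase, and is committed to the pathway by phosphofructokinase, which the PFKFB enzymes tune through fructose 2,6-bisphosphate. Pyruvate is either reduced to lactate by lactate dehydrogenase and exported by monocarboxylate transporters, or carried into mitochondria and oxidised by the pyruvate dehydrogenase (PDH) complex, which the PDH kinases switch off. The pentose phosphate pathway branches off from glucose 6-phosphate and yields NADPH and ribose 5-phosphate. Many glycolysis genes, though not those of the PDH complex or the pentose phosphate pathway, are textbook targets of the hypoxia-inducible factors (HIFs). These bind DNA at a short core, often the letters ACGTG. In the mouse embryo and in culture, naive pluripotent cells use both glycolysis and respiration, primed epiblast cells lean on glycolysis, and early germ cells are known for more respiration.

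The promoter stretches printed here are shown because they hold the core letters ACGTG (on either strand, so that CACGT is the same motif read backwards) in 5 genes that were called lower in at least 1 comparison, with Slc16a1 as the transporter gene whose change was called in none. Capitals mark the motif, and CACGTG holds 1 match on each strand. Sequences are from RefSeq on GRCm38.p6, 5′ to 3′ on the strand of the gene, within the 250 bases before an annotated start.
Slc2a1 (chr4:119108689-119108733, + strand): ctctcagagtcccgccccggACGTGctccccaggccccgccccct
Hk2 (chr6:82774482-82774700, - strand): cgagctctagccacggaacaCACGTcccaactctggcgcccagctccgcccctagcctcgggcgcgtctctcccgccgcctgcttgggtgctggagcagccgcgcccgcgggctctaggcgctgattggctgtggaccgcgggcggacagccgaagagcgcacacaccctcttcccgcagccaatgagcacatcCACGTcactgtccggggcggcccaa
Pgk1 (chrX:106186930-106186993, + strand): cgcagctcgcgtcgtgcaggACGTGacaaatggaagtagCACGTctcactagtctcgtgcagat
Ldha (chr7:46845639-46845794, + strand): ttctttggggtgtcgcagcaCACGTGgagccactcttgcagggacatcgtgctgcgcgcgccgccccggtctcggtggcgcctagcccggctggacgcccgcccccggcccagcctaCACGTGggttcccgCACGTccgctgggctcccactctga
Slc16a3 (chr11:120949020-120949066, + strand): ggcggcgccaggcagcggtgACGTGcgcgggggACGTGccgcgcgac
Slc16a1 (chr3:104638444-104638489, + strand): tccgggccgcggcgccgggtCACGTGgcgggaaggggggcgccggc
Promoters were matched for 39 of the 40 genes (60 annotated starts). Of these 60 promoters, 19 (31.7%) held ACGTG on either strand, against 16.6% of all 32851 mouse promoters searched over the same length. Among the 20 genes listed as textbook HIF targets, 11 of 29 promoters (37.9%) held it, and among the other 20 genes 8 of 31 (25.8%). Counted by gene, these were 9 of the 19 targets with a promoter (Slc2a3 had none matched) and 6 of the other 20. The target list was drawn up with earlier results of these data known, and no test was run on this split. All mouse promoters were not matched to the 60 in base composition, and some of the 60 are starts of the same gene. The printed genes were picked for holding a match. Gpi1, Pfkl, Pfkp, Aldoc, Tpi1, Eno1 and Pdk1, all called lower from TKO_40h to TKO_96h, held no ACGTG at any annotated start. Other forms of the core were not searched. A match describes the letters of this window and is not a measured binding site. Slc16a1 and Slc16a3, a pair of transporter genes of which the second fell and the first was not called, both carry matches. The 2 matches of Slc16a1 are the 2 strands of 1 CACGTG, while Slc16a3 has 2 separate ACGTG and no CACGTG.

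The libraries held 6570180 to 9114128 estimated counts. Summed CPM (estimated counts relative to the TMM-scaled library total) of the 3 targeted methyltransferase genes was 957 to 1077 in WT_40h and 104 to 248 in the 9 TKO libraries. Dnmt1 was at 426 to 450 CPM in WT_40h and 64.9 to 152 in the TKO libraries, Dnmt3a at 358 to 436 and 25.4 to 73.1, and Dnmt3b at 157 to 215 and 13.4 to 55.4. The 3 genes were lower in each TKO library than in any WT_40h library, in keeping with the labels, and transcripts were still counted in TKO. TKO_48h replicate 1 stood apart from its group on the second principal component (-85.6, against -0.1 and -18.1 for replicates 2 and 3) and its 10 most abundant genes held 14.59% of the counts. TKO_96h replicate 1 had 3.057% of its counts in Lars2 with Ccnb1ip1, where the other 2 libraries of the group had 1.641 and 1.477%. Results that rest on these libraries are given with and without them. The germ cell markers Prdm1, Tfap2c and Prdm14 were counted in all 12 libraries, Prdm1 at 7.14 to 38.3 CPM, Tfap2c at 22 to 74.3 CPM and Prdm14 at 9.12 to 22 CPM. Of the rest of the germ cell list, Nanos3 and Dnd1 were near the limit of counting, at 0.528 to 4.68 and 1.59 to 7.91 CPM. Dppa3 was at 12.4 to 60.6 CPM, Kit at 55.4 to 127, Ddx4 at 11.7 to 50.7 and Dazl at 46.7 to 114.

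The 40 genes together took 16951 to 17484 CPM in WT_40h. In TKO their sum was 15564 to 16377 CPM at 40 h of priming, 18659 to 23792 at 48 h and 7773 to 8190 at 96 h. The 3 TKO_96h libraries thus lay below the other 9 libraries, and the 3 TKO_48h libraries above them. In bulk RNA, fewer cells of a type and less RNA per cell cannot be told apart.

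**Figure D1:**
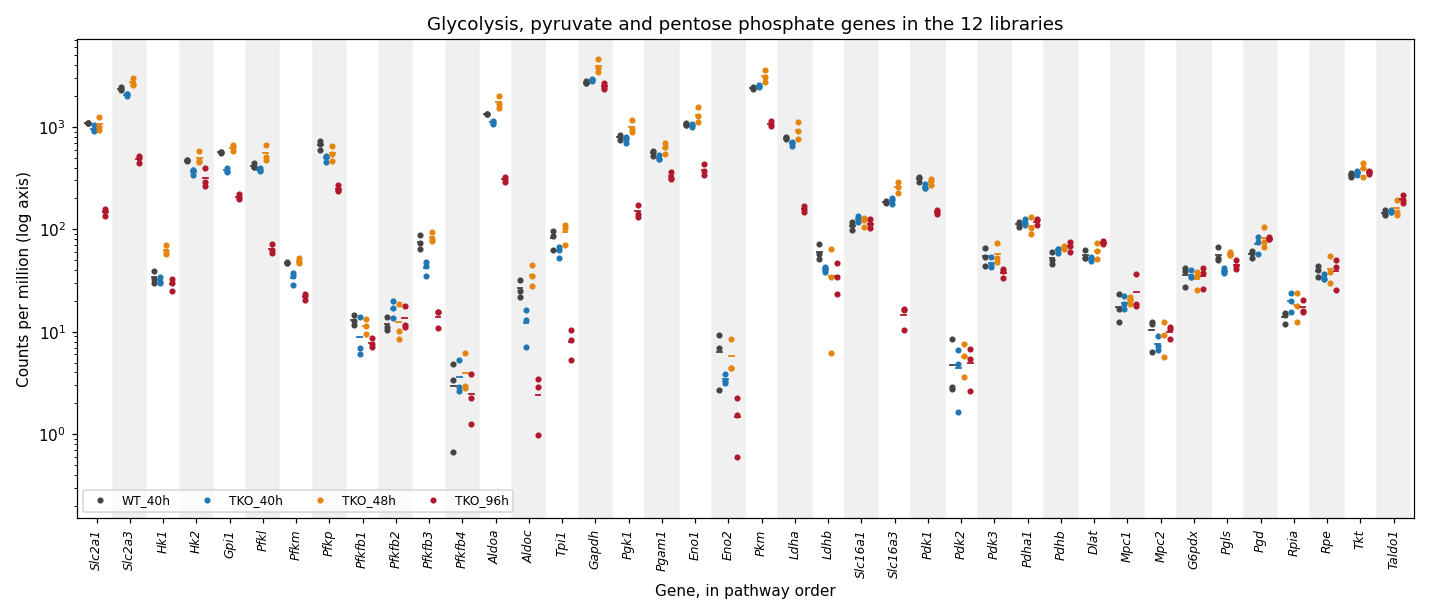
Scaled counts (CPM, log axis) of each of the 40 genes, in pathway order on the x axis, with 1 point per library and a short line at the mean of each group of 3. TKO_96h points lie far below the others for Slc2a1, Slc2a3, Pfkl, Aldoa, Tpi1, Pgk1, Ldha and Slc16a3, while for Slc16a1, Pdha1, Pdhb, G6pdx and Tkt they lie among those of the other groups.

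Priming TKO for 96 h instead of 40 h went with lower levels of many glycolysis genes after induction. Of the 40 genes, 17 fell and 2 rose, where 7.2% of all genes tested were called lower, 4.94% higher and 12.1% either way. The falls ran through glucose uptake (Slc2a1, Slc2a3), the upper pathway (Gpi1, Pfkl, Pfkm, Pfkp, Pfkfb3, Aldoa, Aldoc, Tpi1), the lower pathway (Pgk1, Pgam1, Eno1, Pkm), lactate (Ldha, Slc16a3) and the PDH kinase Pdk1. The genes that rose were Dlat, of the PDH complex, and Taldo1, of the pentose phosphate pathway. The median log2 fold change was -0.31 over the 40 genes and 0.00 over all genes tested. In 16 of the 19 genes the call held in each of 14 alternatives, which include leaving out each library in turn. The exceptions were Pfkm, Dlat and Taldo1, whose values without single libraries are given with each gene.

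Against TKO_48h, 22 of the 40 genes were lower in TKO_96h and none was higher in edgeR's test (10.7% of all genes tested were called lower, 8.83% higher, and 19.5% either way). These are the same 17 genes together with Hk1, Hk2, Gapdh, Eno2 and Pdk3. Among the upward differences 1 had an unadjusted p below 0.05 in edgeR, that of Taldo1 (0.29 ± 0.12, adjusted p = 0.1), and DESeq2 also called none higher, while 1 gene was called higher without TKO_48h replicate 1. The median was -0.68 over the 40 genes and 0.01 over all genes. The comparisons of TKO_96h with TKO_40h and with TKO_48h share the TKO_96h libraries, and the TKO_40h libraries serve in 3 of the 4 comparisons, so that these are not independent of each other. The 3 TKO_96h libraries were the 3 lowest of all 12 for 19 of the 40 genes, against 6.80% of all genes tested.

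Between TKO_40h and TKO_48h, 14 genes rose and none fell in edgeR's test, where 2.57% of all genes were called higher, 2.92% lower and 5.49% either way. No member had an unadjusted p below 0.05 downward, and DESeq2 called none lower. The genes were Slc2a3, Hk1, Hk2, Gpi1, Pfkl, Pfkm, Pfkfb3, Aldoa, Aldoc, Gapdh, Pgk1, Pkm, Ldha and Pgls, by log2 fold changes of 0.33 to 1.56. The median over the 40 genes was 0.33, against 0.00 over all genes. This count depended on single libraries. It was 5, 5 and 7 without TKO_40h replicates 1, 2 and 3, and 7, 18 and 8 without TKO_48h replicates 1, 2 and 3. Over all genes tested the count of calls moved likewise, from 888 to between 324 and 1107. Hk1, Gpi1, Pfkfb3, Aldoa and Aldoc kept their calls whichever library was left out, and all of these but Pfkfb3 also kept them in the other alternatives. The other 9 calls were each lost in at least 2 of the 6 fits that left out a library, with adjusted p of up to 0.20. TKO_48h libraries were the 3 highest of the 12 for 10 of the 40 genes, against 3.35% of all genes.

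Between the genotypes at 40 h, 3 of the 40 genes were lower in TKO_40h and none was higher in edgeR's test, where 3.1% of all genes were called, 1.48% lower and 1.63% higher. They were Gpi1, Pfkfb3 and Pgls. No member had an unadjusted p below 0.05 upward, and DESeq2 called none higher. Without WT_40h replicate 1 or without TKO_40h replicate 1 the call held for Gpi1 alone, a count of 1. Ranges of the 3 replicates did not overlap for 14 genes that were lower and 1 that was higher in TKO_40h, against 12.6% and 13.1% of all genes. The median was -0.14 over the 40 genes and -0.00 over all genes.

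**Figure D2:**
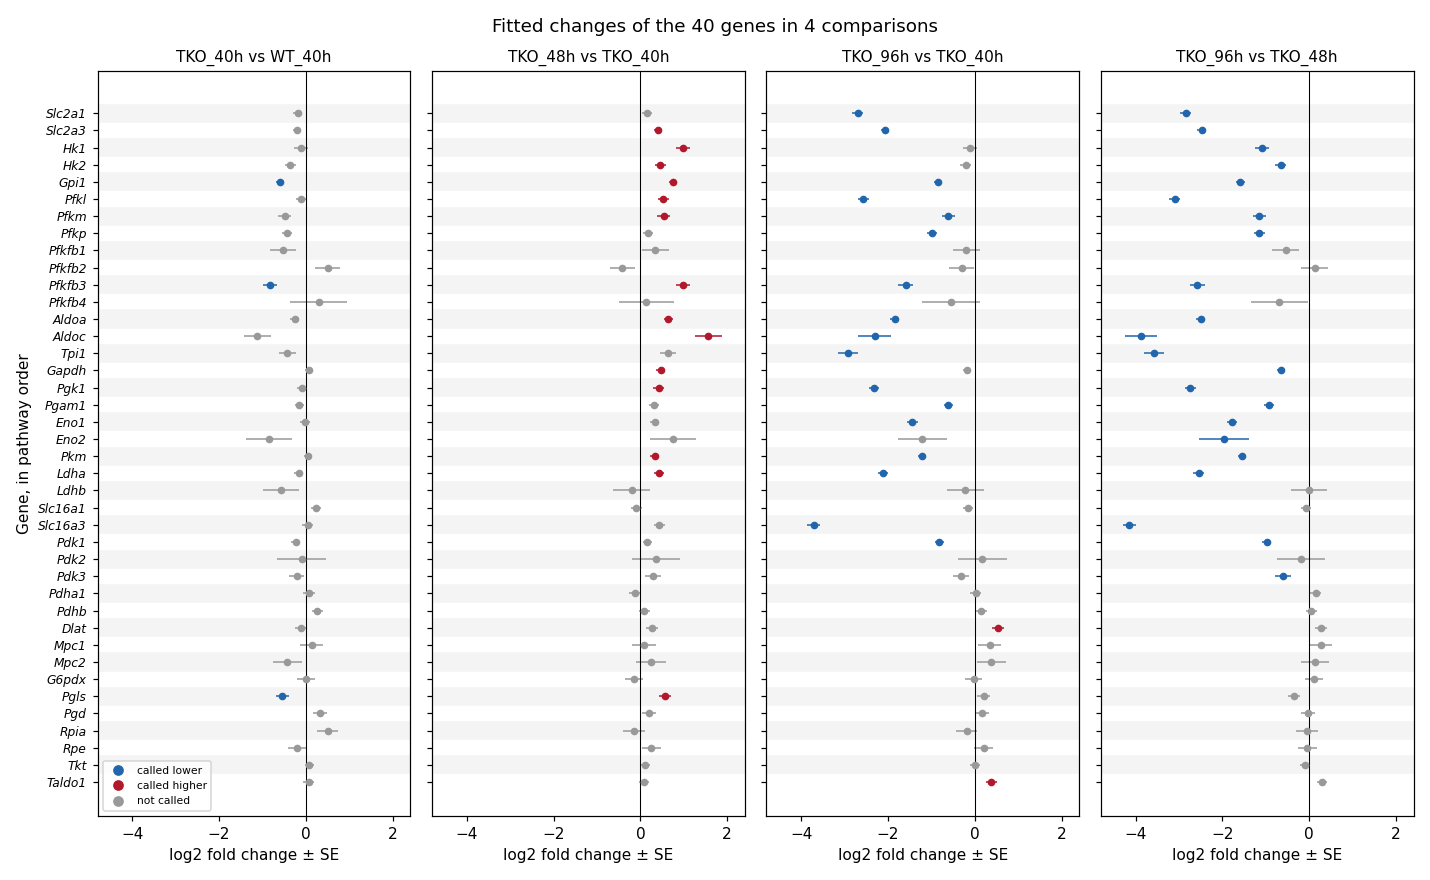
Log2 fold changes with their standard errors for the 40 genes, in pathway order down the y axis, in 4 comparisons, where blue points were called lower, red points higher and grey points neither. From Slc2a1 down to Slc16a3 most points of the 2 right-hand panels lie left of 0, with up to -4.15 for Slc16a3, while those from Pdk2 to Taldo1 lie between -0.61 and 0.53.

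Both glucose transporters fell with long priming. Slc2a1 (GLUT1, the widespread basal transporter, chromosome 4, 119108711 to 119137983 on GRCm38) was at 1098, 1098 and 1088 CPM in WT_40h, 908, 931 and 1038 in TKO_40h, 1262, 923 and 1003 in TKO_48h and 156, 151 and 136 in TKO_96h. Its TKO_96h values lay below all other libraries, and those of the other groups lay within 908 to 1262 CPM. The log2 fold change was -2.70 ± 0.12 (adjusted p = 4.8e-12) from TKO_40h to TKO_96h, a 6.49-fold lower level, and -2.85 ± 0.12 (adjusted p = 1.1e-12) from TKO_48h. Slc2a3 (GLUT3, the high-affinity transporter of neurons and early embryos, chromosome 6, 122727809 to 122801640) was at 2314, 2335 and 2429 CPM in WT_40h, 2072, 2008 and 2085 in TKO_40h, 3026, 2542 and 2642 in TKO_48h and 444, 498 and 525 in TKO_96h. Here the 4 groups did not overlap: TKO_96h was lowest, then TKO_40h, WT_40h and TKO_48h. Slc2a3 fell by 2.07 ± 0.10 (adjusted p = 1.3e-11) from TKO_40h to TKO_96h and fell by 2.48 ± 0.10 (adjusted p = 8.1e-13) from TKO_48h. Its rise from TKO_40h to TKO_48h was 0.41 ± 0.09 (adjusted p = 0.013), which was not called without TKO_40h replicate 1, 2 or 3 (adjusted p = 0.058, 0.065 and 0.054).

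The hexokinases, which phosphorylate glucose, were not called between TKO_40h and TKO_96h. Hk1 (chromosome 10, 62268855 to 62379908) was at 39.4, 33 and 30.1 CPM in WT_40h, 30.4, 30.2 and 34.3 in TKO_40h, 69.7, 57 and 60.8 in TKO_48h and 30.2, 32.9 and 24.8 in TKO_96h. TKO_48h stood above the other 9 libraries, and the other groups overlapped. The change was 0.98 ± 0.16 (adjusted p = 0.0012) from TKO_40h to TKO_48h and -1.09 ± 0.16 (adjusted p = 6.7e-05) from TKO_48h to TKO_96h, while TKO_96h and TKO_40h differed by -0.11 ± 0.16 (adjusted p = 0.73). Hk2 (chromosome 6, 82725025 to 82774454), the hexokinase of muscle and of proliferating cells, was at 476, 471 and 459 CPM in WT_40h, 340, 376 and 382 in TKO_40h, 583, 469 and 454 in TKO_48h and 263, 290 and 399 in TKO_96h. TKO_96h replicate 3, at 399 CPM, lay above the TKO_40h libraries and replicates 1 and 2 below them, so that those groups overlapped (-0.21 ± 0.13, adjusted p = 0.36). TKO_96h was lower than TKO_48h (-0.66 ± 0.13, adjusted p = 0.0014). The rise from TKO_40h to TKO_48h (0.46 ± 0.13, adjusted p = 0.049) was not called without TKO_40h replicate 1, 2 or 3 or without TKO_48h replicate 1 or 3 (adjusted p = 0.20, 0.12, 0.11, 0.18 and 0.061). Gpi1 (glucose phosphate isomerase, chromosome 7, 34201330 to 34230336) was called in all 4 comparisons, as was Pfkfb3. Its level was 572, 559 and 570 CPM in WT_40h, 367, 364 and 398 in TKO_40h, 668, 641 and 576 in TKO_48h and 205, 196 and 223 in TKO_96h. TKO_40h lay below WT_40h (-0.59 ± 0.09, adjusted p = 0.0015) and below TKO_48h (0.74 ± 0.09, adjusted p = 0.00017), and TKO_96h lay below all others (-0.85 ± 0.10, adjusted p = 5.1e-06 against TKO_40h and -1.59 ± 0.10, adjusted p = 5.2e-10 against TKO_48h). These calls held in each alternative tried.

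Phosphofructokinase, the committing step, is made from 3 genes, and they fell by different amounts. Pfkl, the liver type (chromosome 10, 77986947 to 78010083), was at 409, 439 and 402 CPM in WT_40h, 377, 373 and 398 in TKO_40h, 660, 479 and 513 in TKO_48h and 72.2, 62.6 and 58.3 in TKO_96h. TKO_96h was at about the same low level in its 3 replicates, below all other libraries. Pfkl fell by 2.57 ± 0.13 (adjusted p = 2.2e-11) from TKO_40h to TKO_96h, a 5.95-fold lower level, and fell by 3.10 ± 0.13 (adjusted p = 1.1e-12) from TKO_48h. Its rise from TKO_40h to TKO_48h (0.53 ± 0.12, adjusted p = 0.012) was not called without TKO_40h replicate 1 or 2 or TKO_48h replicate 1 (adjusted p = 0.06, 0.059 and 0.054). Pfkp, the platelet type (chromosome 13, 6579768 to 6648777), was at 721, 677 and 601 CPM in WT_40h, 453, 503 and 522 in TKO_40h, 460, 657 and 547 in TKO_48h and 244, 236 and 270 in TKO_96h. Its fall was smaller, -0.98 ± 0.12 (adjusted p = 1.8e-05) against TKO_40h and -1.15 ± 0.12 (adjusted p = 1.6e-06) against TKO_48h, with TKO_96h again below the rest. Pfkm, the muscle type (chromosome 15, 98092589 to 98132451), was at 46.5, 46.9 and 48.4 CPM in WT_40h, 37.7, 28.4 and 34.9 in TKO_40h, 46.4, 47.6 and 53 in TKO_48h and 23.3, 20.4 and 22.4 in TKO_96h. TKO_96h lay below the rest here too, with -1.15 ± 0.15 (adjusted p = 2.1e-05) against TKO_48h and -0.61 ± 0.15 (adjusted p = 0.011) against TKO_40h, the latter not called without TKO_40h replicate 1 or TKO_96h replicate 2 (adjusted p = 0.065 and 0.05). The rise of Pfkm from TKO_40h to TKO_48h (0.54 ± 0.15, adjusted p = 0.036) was not called without TKO_40h replicates 1, 2 or 3 or TKO_48h replicates 1 or 3 (adjusted p = 0.059, 0.17, 0.087, 0.06 and 0.13).

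Of the 4 PFKFB genes, whose enzymes make and remove the activator of phosphofructokinase, Pfkfb3 alone was called. Pfkfb3, the form with the strongest kinase activity (chromosome 2, 11471433 to 11554077), was at 87.6, 72.9 and 64.7 CPM in WT_40h, 35.3, 43.5 and 47.8 in TKO_40h, 77, 93.3 and 80 in TKO_48h and 10.9, 15.5 and 15.4 in TKO_96h. It was lower in TKO_40h than in WT_40h (-0.83 ± 0.16, adjusted p = 0.0065), higher in TKO_48h than in TKO_40h (0.98 ± 0.16, adjusted p = 0.0012), and lowest in TKO_96h (-1.59 ± 0.17, adjusted p = 3.7e-06 against TKO_40h and -2.58 ± 0.17, adjusted p = 2.7e-09 against TKO_48h). No TKO_40h or TKO_96h value overlapped another group, while WT_40h and TKO_48h overlapped. The difference between genotypes was not called without WT_40h replicate 1 or TKO_40h replicate 1 (adjusted p = 0.053 and 0.052). Pfkfb1 (6.08 to 14.4 CPM), Pfkfb2 (8.42 to 19.8 CPM) and Pfkfb4 (0.667 to 6.15 CPM) were low in all groups. Of the counts of Pfkfb2 with genes of shared sequence, 45.92% lay in those other genes, so that its level is uncertain.

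Aldolase cleaves fructose 1,6-bisphosphate, and both of its genes moved in 3 comparisons. Aldoa, the muscle and ubiquitous form (chromosome 7, 126795234 to 126800751), was at 1334, 1333 and 1325 CPM in WT_40h, 1119, 1072 and 1141 in TKO_40h, 1991, 1542 and 1676 in TKO_48h and 307, 291 and 325 in TKO_96h. TKO_96h was lowest, then TKO_40h, then WT_40h, and TKO_48h was highest, without overlap. The changes were 0.64 ± 0.10 (adjusted p = 0.00079) from TKO_40h to TKO_48h, -1.85 ± 0.10 (adjusted p = 1.5e-10) from TKO_40h to TKO_96h and -2.50 ± 0.10 (adjusted p = 1.1e-12) from TKO_48h to TKO_96h. Aldoc, the brain form (chromosome 11, 78322968 to 78327781), was much rarer at 32.3, 25 and 22 CPM in WT_40h, 16.2, 7.04 and 13.1 in TKO_40h, 45, 27.7 and 34.7 in TKO_48h and 2.87, 0.98 and 3.43 in TKO_96h. Its order was the same, with TKO_48h and WT_40h overlapping. The changes were 1.56 ± 0.31 (adjusted p = 0.0059), -2.31 ± 0.37 (adjusted p = 0.00031) and -3.87 ± 0.37 (adjusted p = 4.3e-07) in the same comparisons. Tpi1 (triosephosphate isomerase, chromosome 6, 124810586 to 124814296) was at 96.5, 62.7 and 86.8 CPM in WT_40h, 52.4, 66.5 and 63.4 in TKO_40h, 110, 70.9 and 103 in TKO_48h and 10.3, 5.32 and 8.31 in TKO_96h. With -2.93 ± 0.23 (adjusted p = 3.5e-08) against TKO_40h and -3.57 ± 0.23 (adjusted p = 1.1e-09) against TKO_48h, 7.64-fold and 11.9-fold lower levels, it had the second largest fall of the 40 genes from TKO_40h. Its rise from TKO_40h to TKO_48h, without overlap, missed the threshold (0.64 ± 0.19, adjusted p = 0.056).

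Gapdh, which feeds the lower pathway and is often used as a reference gene, stood apart from its neighbours. Gapdh (chromosome 6, 125161715 to 125166467) was at 2814, 2657 and 2654 CPM in WT_40h, 2840, 2808 and 2907 in TKO_40h, 4624, 3415 and 3792 in TKO_48h and 2707, 2468 and 2363 in TKO_96h. TKO_48h was above the other 9 libraries, and TKO_96h lay just below TKO_40h while overlapping WT_40h. From TKO_40h to TKO_96h it changed by -0.18 ± 0.10 (adjusted p = 0.28), which was not called, and from TKO_48h by -0.65 ± 0.10 (adjusted p = 0.00015). Its rise from TKO_40h to TKO_48h (0.47 ± 0.10, adjusted p = 0.011) was not called without TKO_40h replicate 1 or 2 (adjusted p = 0.054 and 0.053). Gapdh has 138 copies, each sharing at least 10% of the copy's own 31-base words with Gapdh. Most of the copies are pseudogenes, but together they held 1.893% of the summed counts.

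Pgk1 (phosphoglycerate kinase, the next enzyme and the first to return ATP, chromosome X, 106187100 to 106203699) was at 842, 804 and 744 CPM in WT_40h, 754, 697 and 791 in TKO_40h, 1174, 884 and 946 in TKO_48h and 174, 133 and 142 in TKO_96h. TKO_96h was 5-fold below TKO_40h (-2.32 ± 0.12, adjusted p = 1.2e-10) and 6.69-fold below TKO_48h (-2.74 ± 0.13, adjusted p = 6.2e-12), with no overlap. Its rise from TKO_40h to TKO_48h (0.42 ± 0.12, adjusted p = 0.041) was not called without TKO_40h replicates 1, 2 or 3 or TKO_48h replicates 1 or 3 (adjusted p = 0.13, 0.17, 0.087, 0.17 and 0.076). Pgam1 (phosphoglycerate mutase, chromosome 19, 41911923 to 41918660) was at 562, 579 and 517 CPM in WT_40h, 481, 483 and 533 in TKO_40h, 703, 543 and 630 in TKO_48h and 314, 363 and 307 in TKO_96h, with TKO_96h below the other libraries. The changes were -0.61 ± 0.11 (adjusted p = 0.00089) from TKO_40h and -0.93 ± 0.11 (adjusted p = 6.1e-06) from TKO_48h to TKO_96h. Summed with its copy Pgam1-ps2, it was at 545 to 617 CPM in TKO_40h and 348 to 379 CPM in TKO_96h.

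Eno1 (enolase of most tissues, chromosome 4, 150236721 to 150248879) was at 1036, 1046 and 1086 CPM in WT_40h, 1040, 1007 and 1076 in TKO_40h, 1552, 1117 and 1270 in TKO_48h and 435, 374 and 341 in TKO_96h. Of the sequence words of Eno1b, 84.36% are shared with Eno1, and copies held 53.88% of the counts summed over Eno1 and its copies. The split between Eno1 and Eno1b is therefore uncertain. The sum of both was 2292, 2292 and 2328 CPM in WT_40h, 2238, 2239 and 2392 in TKO_40h, 3448, 2290 and 2795 in TKO_48h and 843, 730 and 754 in TKO_96h, so that TKO_96h was lowest with and without Eno1b. The fitted change of Eno1 was -1.44 ± 0.12 (adjusted p = 6.5e-08) from TKO_40h and -1.78 ± 0.12 (adjusted p = 2.1e-09) from TKO_48h. Eno2, the neuronal enolase (chromosome 6, 124760053 to 124769673), was near the limit of counting at 2.67, 9.21 and 6.91 CPM in WT_40h, 3.32, 3.85 and 3.14 in TKO_40h, 4.47, 8.42 and 4.4 in TKO_48h and 0.604, 1.54 and 2.24 in TKO_96h. It was lower in TKO_96h than in TKO_48h (-1.96 ± 0.57, adjusted p = 0.02), a call lost without TKO_48h replicate 2 and without TKO_96h replicate 1 or 2 (adjusted p = 0.09, 0.081 and 0.052).

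Pkm (pyruvate kinase, which yields pyruvate and ATP, chromosome 9, 59656368 to 59679375) was at 2464, 2416 and 2365 CPM in WT_40h, 2491, 2456 and 2549 in TKO_40h, 3595, 2755 and 3094 in TKO_48h and 1141, 1065 and 1023 in TKO_96h. TKO_96h was 2.32-fold lower than TKO_40h (-1.22 ± 0.10, adjusted p = 6.1e-08) and 2.92-fold lower than TKO_48h (-1.55 ± 0.10, adjusted p = 1.1e-09). The rise from TKO_40h to TKO_48h (0.33 ± 0.10, adjusted p = 0.048) was not called without TKO_40h replicates 1, 2 or 3 or TKO_48h replicates 1 or 3 (adjusted p = 0.15, 0.16, 0.13, 0.17 and 0.12). Pkm makes an M1 and an M2 form through 1 of 2 exclusive exons (M1 exon at 59675029 to 59675195, M2 exon at 59675568 to 59675734 on chromosome 9). The M2 form, that of embryonic and proliferating cells, took 84.45 to 97.8% of the TPM (abundance scaled to transcript length and to the library total) of both forms. The lowest and a high value (84.45 and 97.22%) both came from TKO_96h, so that the groups overlapped.

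The lactate branch held the largest fall of the 40 genes. Ldha (chromosome 7, 46841475 to 46855627), whose enzyme favours lactate formation, was at 802, 760 and 771 CPM in WT_40h, 697, 653 and 719 in TKO_40h, 1104, 769 and 915 in TKO_48h and 147, 157 and 170 in TKO_96h. TKO_96h was 4.36-fold below TKO_40h (-2.12 ± 0.12, adjusted p = 1.8e-10) and 5.87-fold below TKO_48h (-2.55 ± 0.12, adjusted p = 8.6e-12). The rise of Ldha from TKO_40h to TKO_48h (0.43 ± 0.11, adjusted p = 0.03) was not called without TKO_40h replicates 1, 2 or 3 or TKO_48h replicates 1 or 3 (adjusted p = 0.1, 0.13, 0.079, 0.13 and 0.08). Ldhb, whose enzyme favours the return to pyruvate (chromosome 6, 142490249 to 142507957), was at 72, 57.8 and 51.8 CPM in WT_40h, 40.2, 38.1 and 43.2 in TKO_40h, 6.18, 34 and 64.5 in TKO_48h and 23.3, 47 and 34 in TKO_96h. It varied widely in TKO_48h, with replicate 1 at 6.18 CPM, and differed by -0.22 ± 0.42 (adjusted p = 0.81) between TKO_40h and TKO_96h.

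Slc16a3 (MCT4, the lactate exporter of glycolytic cells, chromosome 11, 120948480 to 120960868) was at 186, 180 and 189 CPM in WT_40h, 194, 177 and 201 in TKO_40h, 289, 227 and 260 in TKO_48h and 10.4, 16.8 and 16.4 in TKO_96h. TKO_96h lay 13.1-fold below TKO_40h (-3.71 ± 0.15, adjusted p = 2.8e-12) and 17.7-fold below TKO_48h (-4.15 ± 0.15, adjusted p = 3.1e-13), the largest changes of the 40 genes. TKO_48h was above the other 9 libraries, yet its rise from TKO_40h was just outside the threshold (0.44 ± 0.13, adjusted p = 0.05). Slc16a1 (MCT1, the widespread transporter that works in both directions, chromosome 3, 104638668 to 104658462) was at 109, 98.4 and 118 CPM in WT_40h, 136, 117 and 127 in TKO_40h, 123, 106 and 129 in TKO_48h and 125, 112 and 103 in TKO_96h. Its groups overlapped in the 4 comparisons, and the change from TKO_40h to TKO_96h was -0.16 ± 0.12 (adjusted p = 0.44).

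Among genes of pyruvate oxidation, the calls lower were all in the kinases that restrain it. Pdk1, the PDH kinase that HIF is known to raise (chromosome 2, 71873224 to 71903858), was at 323, 315 and 288 CPM in WT_40h, 254, 255 and 275 in TKO_40h, 313, 270 and 295 in TKO_48h and 155, 148 and 142 in TKO_96h. TKO_96h lay below the other libraries, with -0.82 ± 0.10 (adjusted p = 1.3e-05) against TKO_40h and -0.98 ± 0.10 (adjusted p = 8.7e-07) against TKO_48h. Pdk3 (chromosome X, 93764607 to 93832201) was at 65.9, 53.9 and 43.4 CPM in WT_40h, 44.9, 53.7 and 42.7 in TKO_40h, 73, 48.3 and 52 in TKO_48h and 41.1, 33.3 and 38.8 in TKO_96h. It was lower in TKO_96h than in TKO_48h (-0.61 ± 0.18, adjusted p = 0.02), a call lost without TKO_48h replicate 1 or TKO_96h replicate 2 (adjusted p = 0.13 and 0.089). Pdk2 was low, at 1.66 to 8.54 CPM, and was not called.

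In the PDH complex, Dlat (the E2 subunit, chromosome 9, 50634633 to 50659780) was at 62.5, 52.3 and 52.1 CPM in WT_40h, 51.4, 49.3 and 53.1 in TKO_40h, 61.2, 50.8 and 73.6 in TKO_48h and 71.3, 76.4 and 74.9 in TKO_96h. TKO_96h was above TKO_40h without overlap (0.53 ± 0.14, adjusted p = 0.013), a call lost without TKO_40h replicate 2 (adjusted p = 0.055). Pdha1 and Pdhb, the E1 subunits, were at 89.3 to 131 and 45.5 to 75 CPM over the 12 libraries and were called in no comparison. Their changes from TKO_40h to TKO_96h were 0.02 ± 0.13 (adjusted p = 0.95) and 0.14 ± 0.13 (adjusted p = 0.57). The mitochondrial pyruvate carrier genes were rare. Mpc1 (chromosome 17, 8282904 to 8297661) was at 16.8, 12.4 and 23.2 CPM in WT_40h, 22.4, 18.5 and 16.6 in TKO_40h, 18.6, 21.9 and 20.2 in TKO_48h and 36.2, 18.6 and 17.9 in TKO_96h. Its TKO_96h replicate 1 stood above all other libraries, and the change from TKO_40h (0.34 ± 0.27, adjusted p = 0.48) was -0.07 without it. Mpc2 was at 5.67 to 12.5 CPM and was not called.

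Pentose phosphate genes were called in few comparisons. In the oxidative arm, which makes NADPH, G6pdx was at 25.4 to 42.3 CPM and Pgd at 53 to 106 CPM over the 12 libraries, and neither was called. Pgls (6-phosphogluconolactonase, chromosome 8, 71592176 to 71601092) was at 50.3, 52.7 and 66.9 CPM in WT_40h, 41.5, 37 and 38.6 in TKO_40h, 59.6, 56 and 56.5 in TKO_48h and 40.5, 43.7 and 50 in TKO_96h. TKO_40h lay below WT_40h (-0.54 ± 0.14, adjusted p = 0.04) and below TKO_48h (0.56 ± 0.14, adjusted p = 0.024), both without overlap. The first of these was lost without any 1 of the 6 libraries (adjusted p of up to 0.24), the second without TKO_40h replicates 1, 2 or 3 or TKO_48h replicates 1 or 3 (adjusted p = 0.063, 0.1, 0.084, 0.071 and 0.062). Of the counts of Pgls with its overlapping neighbour Fam129c, 14.26% lay in the latter.

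In the non-oxidative arm, which shuttles carbon back to glycolysis, Tkt (transketolase) was at 323 to 441 CPM, Rpe at 25.7 to 54.6 CPM and Rpia at 12 to 24.1 CPM, with no call. Taldo1 (transaldolase, chromosome 7, 141392199 to 141402968) was at 153, 140 and 137 CPM in WT_40h, 154, 146 and 148 in TKO_40h, 194, 138 and 147 in TKO_48h and 215, 192 and 179 in TKO_96h. TKO_96h lay above TKO_40h without overlap (0.38 ± 0.12, adjusted p = 0.045). This call was lost without TKO_40h replicate 1, 2 or 3 and without TKO_96h replicate 1 or 2 (adjusted p = 0.088, 0.13, 0.14, 0.18 and 0.082). Across the 7 genes of both arms, none was called lower in TKO_96h than in TKO_40h by edgeR, by DESeq2 or at an unadjusted p below 0.05.

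Isozymes of the same step changed unequally, which was read from the share of 1 isozyme in the summed TPM of its family within each library. Shares were compared over the 4 groups with an exact permutation test over all 369600 arrangements of the 12 libraries, adjusted over 10 families. For 3 libraries against 3 the smallest p of an exact permutation test is 0.10, so pairs of groups are described by their ranges. Differences over the groups passed in 5 of the 10 families. Shares are given as mean ± SD (n = 3) in the order WT_40h, TKO_40h, TKO_48h and TKO_96h.

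Slc16a3 took 84.3 ± 1.91%, 82.6 ± 0.538%, 87.4 ± 1.49% and 29.7 ± 6.34% of the Slc16a3 and Slc16a1 TPM (exact permutation test, adjusted p = 0.0019). TKO_96h libraries, at 22.5, 34.1 and 32.6%, lay far below the other 9, at 82.1 to 88.5%. Pfkfb3 took 62.2 ± 2.31%, 52.6 ± 9.86%, 66.2 ± 0.349% and 26.9 ± 3.93% of the PFKFB TPM (exact permutation test, adjusted p = 6.5e-04, from the smallest p the test allows, 6.5e-05). Its TKO_96h libraries were at 24.5 to 31.5% and the others at 41.4 to 66.5%. Ldha took 91.4 ± 1.15%, 93.4 ± 0.455%, 95.3 ± 3.60% and 79.3 ± 4.25% of lactate dehydrogenase TPM (exact permutation test, adjusted p = 0.0044). TKO_96h was at 74.4 to 81.8% and the others at 90.1 to 99.1%, the highest in TKO_48h replicate 1.

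In 2 families the share of the named isozyme was highest in TKO_96h. Pfkp took 57.4 ± 2.94%, 56.4 ± 3.08%, 47.3 ± 7.36% and 73.1 ± 2.47% of phosphofructokinase TPM (exact permutation test, adjusted p = 0.0019), with TKO_96h at 71.1 to 75.9% and the others at 38.8 to 59.8%. Slc2a3 took 68.8 ± 0.677%, 69.3 ± 2.15%, 72.5 ± 0.283% and 76.5 ± 3.12% of the TPM of both glucose transporters (exact permutation test, adjusted p = 0.0019), with TKO_96h at 73.5 to 79.7% and the others at 66.8 to 72.8%. No difference passed for Hk2 (adjusted p = 0.14), Aldoc (adjusted p = 0.14), Eno2 (adjusted p = 0.17), Pdk1 (adjusted p = 0.42) or Mpc1 (adjusted p = 0.96) in their families. Hk2 took 80.7 to 92.0% of hexokinase TPM and Pdk1 72.9 to 85.1% of PDH kinase TPM over the 12 libraries. Aldoc and Eno2 stayed below 3% of theirs, at up to 2.09 and 2.33%.

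**Figure D3:**
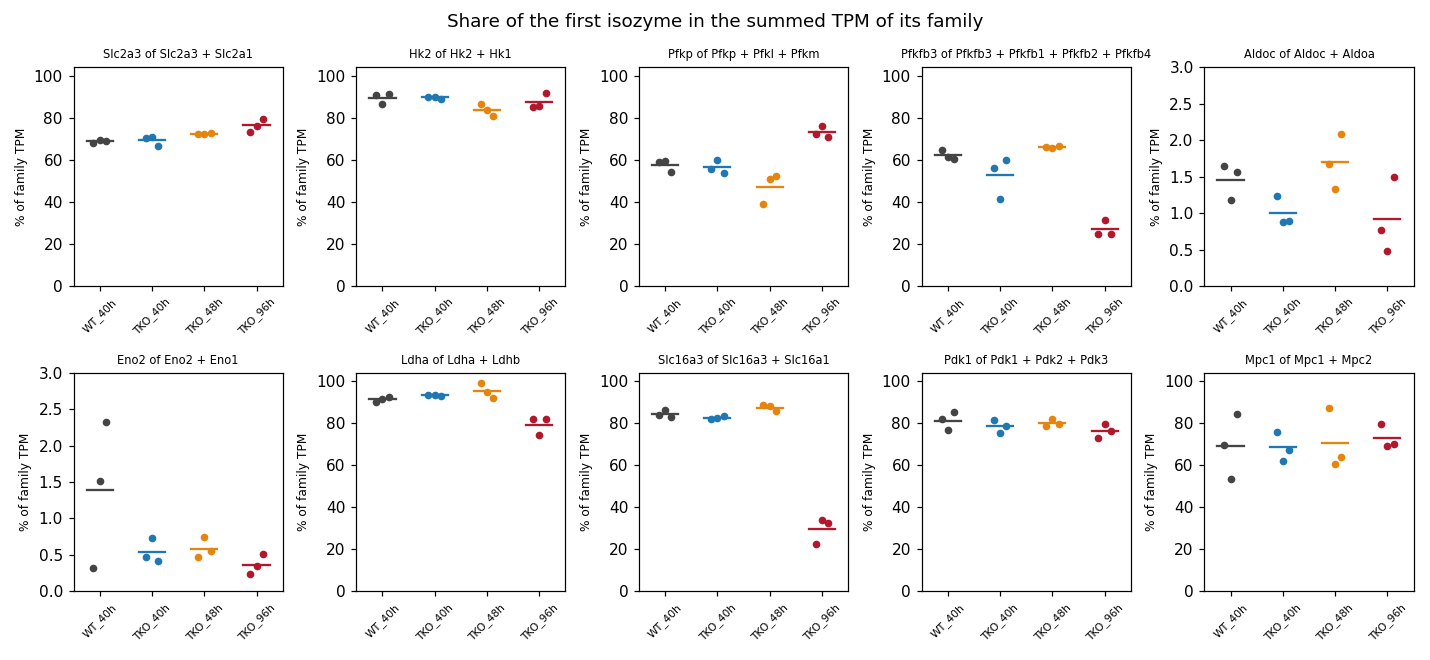
Share (%) of the first named isozyme in the summed TPM of its family, with 1 point per library and a line at the mean of each group of 3. The y axes of Aldoc and Eno2 end at 3%, the others run from 0 to just above 100%. TKO_96h drops to 22.5 to 34.1% for Slc16a3 and to 24.5 to 31.5% for Pfkfb3.

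Levels of different genes were compared as TPM within a library, since TPM across these libraries is bent by a few very abundant short transcripts. In WT_40h, Gapdh was the most abundant of the 40 genes at 1426 to 1594 TPM, followed by Pkm (699 to 731), Aldoa (638 to 648) and Slc2a3 (575 to 591), with no overlap between neighbours. In TKO_96h, Gapdh (1288 to 1794 TPM) and Pkm (293 to 361) led as well. The next genes there, Aldoa (146 to 163), Eno1 (116 to 157), Pgam1 (115 to 157), Slc2a3 (99.6 to 135), Taldo1 (105 to 132) and Tkt (107 to 118), each overlapped the next in their ranges. Taldo1 and Tkt overlapped Slc2a3 there, while in WT_40h Tkt and Taldo1, at 93.9 to 107 and 78.5 to 90.5 TPM, lay below it. These ranges run over the 3 libraries of a group, and TPM of the same gene is not compared between groups. From TKO_40h to TKO_96h the fitted log2 fold change was 0.01 ± 0.11 for Tkt, 0.38 ± 0.12 for Taldo1 and -2.07 ± 0.10 for Slc2a3. Eno1, at 344 to 385 TPM in WT_40h, was taken without Eno1b in both groups. Since the split between Eno1 and Eno1b is uncertain, so is the place of enolase in these orders.

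Gapdh's share of the TPM of the 40 genes was 24.3 ± 0.631% in WT_40h, 27.7 ± 0.408% in TKO_40h, 28.2 ± 0.761% in TKO_48h and 46.0 ± 3.32% in TKO_96h (mean ± SD, n = 3). Glucose transporters went from 13.1 ± 0.708% in TKO_40h to 4.65 ± 0.884% in TKO_96h, aldolase from 9.28 ± 0.205 to 4.49 ± 0.484% and phosphoglycerate kinase from 4.58 ± 0.231 to 1.62 ± 0.166%. The non-oxidative pentose phosphate genes went from 3.68 ± 0.235 to 7.38 ± 0.326% and the PDH complex from 1.66 ± 0.0481 to 3.33 ± 0.123%. These are shares of a sum that fell, and no test was run on them.

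**Figure D4:**
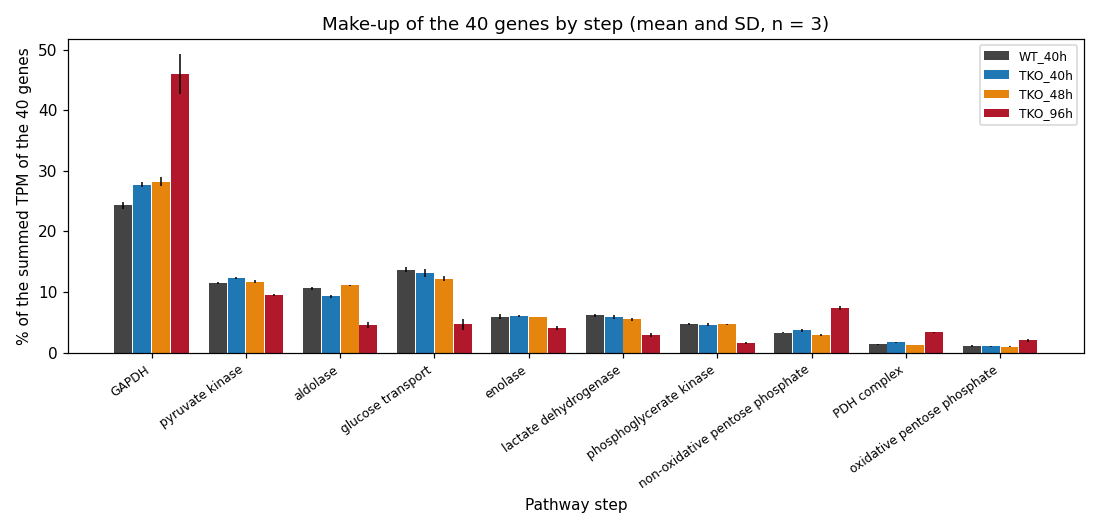
Share (%) of 10 pathway steps in the summed TPM of the 40 genes, as bars of the mean with the SD of 3 libraries per group. Gapdh rises to 46.0% in TKO_96h, the glucose transporter, aldolase and phosphoglycerate kinase bars shrink, and the pentose phosphate and PDH complex bars grow.

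Other genes of these pathways, 56 listed and 50 tested, were followed beside them. From TKO_40h to TKO_96h, 7 of the 50 fell and 2 rose, where 7.2% of all genes tested were called lower and 4.94% higher. The fall was largest for Pgm1, the phosphoglucomutase that links glycogen to glycolysis (-2.45 ± 0.19, adjusted p = 3.3e-08). Pygl, liver glycogen phosphorylase, fell as well (-1.59 ± 0.36, adjusted p = 0.006). Galk1, galactokinase, fell by 1.39 ± 0.16 (adjusted p = 1.1e-05). Bsg and Emb, the chaperones that bring monocarboxylate transporters to the membrane, fell too (-0.64 ± 0.11, adjusted p = 0.00051 for Bsg and -0.85 ± 0.15, adjusted p = 0.0006 for Emb). Gbe1, the glycogen branching enzyme, fell by 0.98 ± 0.21 (adjusted p = 0.0033). From TKO_40h to TKO_48h, 6 rose, where 2.57% of all genes were called higher. Among these 6 were Gys1, glycogen synthase (0.94 ± 0.14, adjusted p = 0.00055), Bsg (0.66 ± 0.11, adjusted p = 0.0012) and Pcx, pyruvate carboxylase (0.73 ± 0.14, adjusted p = 0.0059). From TKO_48h to TKO_96h, 11 fell and 1 rose, where 10.7% of all genes were called lower and 8.83% higher. The gene that rose was Prps2, which makes the ribose donor of nucleotides (0.40 ± 0.12, adjusted p = 0.018). Between the genotypes, Pgm1 was lower in TKO_40h (-0.73 ± 0.16, adjusted p = 0.016) and Fbp2 and Gpd1l were higher. With 1 of the 50 lower and 2 higher, these calls were few, where 1.48% of all genes were called lower and 1.63% higher. Medians over the 50 genes were 0.02, 0.22, -0.12 and -0.20 from the genotype comparison to that of TKO_96h with TKO_48h.

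The 40 genes were also split by a textbook list of HIF targets, drawn up with earlier results of these data known, so that it is no independent evidence. Of the 20 listed targets, 16 were called lower from TKO_40h to TKO_96h, with a median log2 fold change of -1.52. Of the other 20, 1 fell (Pfkm) and 2 rose (Dlat, Taldo1), with a median of 0.02. The other 20 include Eno2 and Pdk3, and absence from the list does not show that a gene is no HIF target. The 4 listed targets not called were Hk1, Hk2, Pfkfb4 and Gapdh. From TKO_40h to TKO_48h, 12 of the 20 targets rose (median 0.43), as did 2 of the other 20 (median 0.15). Against TKO_48h, 19 of the 20 targets and 3 of the other 20 (Pfkm, Eno2 and Pdk3) were lower in TKO_96h. Over all genes tested, 7.2% were called lower and 4.94% higher from TKO_40h to TKO_96h. From TKO_40h to TKO_48h 2.57% were called higher, and from TKO_48h to TKO_96h 10.7% were called lower.

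Another list, of 20 hypoxia-inducible genes outside glycolysis, was also drawn up with earlier results of these data known. Of these 20, 16 fell from TKO_40h to TKO_96h (median -1.61), where 7.2% of all genes tested were called lower. From TKO_40h to TKO_48h 13 of them rose (median 0.73), where 2.57% of all genes were called higher. Against TKO_48h all 20 were lower in TKO_96h (median -2.55), where 10.7% of all genes were called lower. Bnip3, of mitochondrial autophagy, was at 238, 214 and 237 CPM in WT_40h, 164, 172 and 215 in TKO_40h, 330, 302 and 287 in TKO_48h and 11.3, 14.8 and 8.84 in TKO_96h. The order of its groups was that of Slc2a3 and Aldoa, without overlap other than TKO_40h replicate 3 with WT_40h. Hif1a, which codes for a HIF subunit, lay in TKO at 143 to 153 CPM at 40 h of priming, 116 to 119 CPM at 48 h and 166 to 193 CPM at 96 h, higher in TKO_96h than in TKO_48h (0.62 ± 0.10, adjusted p = 0.00021). Among 6 HIF and MYC family genes, the one called between TKO_40h and TKO_96h was Myc, another known activator of glycolysis genes, which was higher in TKO_96h than in TKO_40h (0.68 ± 0.21, adjusted p = 0.041). Oxygen, HIF protein and its activity were not measured here.

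Markers of other cells also moved between TKO_40h and TKO_96h, where 7.2% of all genes tested were called lower and 4.94% higher. Endoderm markers summed to 76.6 to 84.4 CPM in TKO_40h and 14.4 to 41.4 CPM in TKO_96h, with 3 of 7 tested called lower. Much of this sum was Cubn, at 45 to 55.8 CPM in TKO_40h and 4.06 to 24.9 CPM in TKO_96h. Afp and Apoa1 were at 0 in the 3 TKO_96h libraries. In TKO_40h they were already near the limit of counting, at 2.21 to 4.29 and 1.99 to 2.9 CPM. Trophoblast markers summed to 72 to 82.3 and 36.7 to 48.6 CPM, with 3 of 7 lower. Germ cell markers summed to 311 to 360 and 259 to 264 CPM, with 4 of 9 lower (Ddx4, Dppa3, Prdm1, Tfap2c). Pluripotency markers summed to 1835 to 1902 and 2439 to 2710 CPM, with 6 of 7 higher. Neural markers summed to 220 to 248 and 261 to 289 CPM, with 2 of 6 higher and 1 lower. Mesoderm and endothelium markers overlapped in their sums (62.4 to 74.2 and 74.1 to 81.8 CPM), and of 8 listed and 5 tested none was called. T was at 0 in TKO_96h, which is not read as a fall. Erythroid markers were at most 8.24 CPM in sum, with Hbb-bt at 0 in all libraries. In WT_40h, endoderm markers summed to 45.5 to 60.9 CPM, trophoblast markers to 37.2 to 47.8 and germ cell markers to 307 to 337. Pluripotency markers summed there to 1559 to 1761 CPM, neural markers to 239 to 260, and mesoderm and endothelium markers to 66.6 to 85.4. The part of these marker differences in the fall of the glycolysis genes was not tested.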

How the data were processed

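RNA was sequenced from 12 PGCLC libraries made with a stranded total RNA kit for low input, per the labels' protocols. Trim Galore 0.6.2 and kallisto are named in the submitters' processing notes; no version of kallisto, transcript set or strand setting is given in the sources used here. The authors deposited estimated counts and TPM per transcript. From these, 116728 of 119414 transcripts were matched to genes of the GENCODE annotation on GRCm38; the others held 2.676 to 4.318% of counts. Estimated counts were summed by gene, rounded to whole numbers and fitted over all 12 libraries with edgeR 4.0.16 (quasi-likelihood test, TMM scaling, minimum count 10, total 15; R 4.3.3), with Benjamini-Hochberg adjusted p below 0.05 over 16178 genes as a call. In a sentence, a value after ± is the standard error of a log2 fold change, or the SD where said. CPM used TMM library sizes.

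TPM was used within libraries alone, since the deposited TPM of Gm12895 and Gm12896 took 28.17 to 43.94% of each library. Genes sharing 10% or more of their own 31-base words with a member were listed as its copies. Isozyme shares were tested by exact permutation. The fits were tested on simulated data. The 3 samples of a group are biological replicates per the labels, which do not say what they share. Depth of 6570180 to 9114128 estimated counts limits genes of a few CPM.

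The members and all gene lists were chosen with earlier results of these data known. Genes called in any comparison are given in every library with their fitted values, with Mpc1 for a step without a call; Ldhb and Slc16a1 were added after their values were seen. Alternatives were RLE size factors, no filter, DESeq2 1.42.0, a replicate block, an effective length offset, the 2 groups alone, copies added to members, leaving out each library and a fit to protein-coding genes, an alternative chosen after seeing the data. Same-numbered replicates did not deviate together, so no pairing was used. Other samples of the study were not analysed here.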

Additional observations from a re-analysis of the deposited data

How the results depend on the processing

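Of the results for single genes and for isozyme shares under alternative settings, 817 kept their direction and side of the threshold, 83 lost the call with the same direction, and 1 reversed: Mpc1 from TKO_40h to TKO_96h was 0.34 and ranged from -0.07 (without TKO_96h replicate 1) to 0.52 (without TKO_96h replicate 3) leaving out 1 library. The count of members called between TKO_40h and WT_40h, 3 in edgeR's fit, was 6 with no filter on low counts, 5 with DESeq2, 1 with an effective length offset, 12 with the 2 groups compared alone and 5 with protein-coding genes alone (chosen after seeing the data). Leaving out 1 library gave 1 to 2. The count between TKO_48h and TKO_40h, 14, was 4 with the effective length offset and 5 to 18 leaving out 1 library. With that offset 77 of all genes were called between the genotypes, against 502; the cause was not tested. The counts against TKO_96h, 19 and 22, stayed within 1.5 times under each alternative. With copies added, Gapdh's share of the summed TPM was 21.8, 24.6, 25.7 and 36.7% from WT_40h to TKO_96h, since the sum then includes Eno1b and other copies.

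Same-numbered libraries of different groups had deviations correlated at -0.060 to 0.051, so the replicate numbers do not pair them. With a replicate block 5 members were called between TKO_40h and WT_40h, against 3, and the other counts were 15, 19 and 22. Genes below about 5 CPM, such as Pfkfb4 and Eno2, are limited by depth.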
